A study of Mus musculus with 18 samples.

Results

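Ppp1r3c encodes a glycogen-targeting subunit of protein phosphatase 1, and it was followed here with 8 other genes of glycogen synthesis and breakdown across 18 arrays of mouse embryonic fibroblasts. The members were Ppp1r3c, its relatives Ppp1r3b and Ppp1r3d, the synthesis genes Gys1, Gbe1 and Ugp2, and the phosphorylase genes Pygb, Pygl and Pygm. They are 9 of the 18194 genes that have a probe set with a single gene symbol in the array annotation, and they hold 15 of the 45101 probe sets. Where a gene had several probe sets, the brightest by its mean over all arrays leads and the others follow. Of the members 8 passed the filter on dim probe sets, as did 13679 genes in all, and Pygm did not. Ppp1r3c was chosen by its measured fall between untreated and 1 h arrays in both genotypes, and the set was built around it, so every value of 1 h against untreated is given below as a description with no test.

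Glycogen is a branched store of glucose. Cells build it from UDP-glucose on a glycogenin primer with glycogen synthase and the branching enzyme, and glycogen phosphorylase releases the glucose again. Subunits of the Ppp1r3 family carry the phosphatase to glycogen, where it removes phosphate from synthase, which activates it, and from phosphorylase and its kinase, which lowers their activity. The brain, liver and muscle forms of phosphorylase are named for the tissue in which each was first known.

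Fibroblasts were grown from 6 mouse embryos of day 14, of which 3 were wild type and 3 lacked NFI-C (knock-out), from the tissue left once head and liver had been taken off, as primary cultures in DMEM with fetal calf serum. Cultures of every group then stood for some hours in DMEM with AlbuMAX II and an insulin, transferrin and selenium mix, and were left untreated or given TGF-β1 at 12.5 ng/ml for 1 h or 10 h. TGF-β1 is a growth factor that drives matrix production in fibroblasts, and NFI-C is a transcription factor of the nuclear factor I family. This gave 6 groups of 3 arrays, and the labels tie the arrays with the same number within a genotype to the same embryo. No untreated culture kept for 10 h was among the samples, so TGF-β1 and time in the medium cannot be told apart at 10 h.

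Values are deposited log2 expression levels, so a difference of 1 is 2-fold. Arrays of the same group correlated at 0.987 to 0.995 over all probe sets. All 10 fibroblast markers lay above the array median on every array, and so did 9 of 10 macrophage markers, the exception being Aif1. Of 10 muscle markers 3 lay above it on every array (Ckm, Acta1 and Des) and 7, with the regulators Myod1 and Myog among them, on none. Of 9 liver markers 2 lay above it on every array (Ttr and Hnf4a) and 6, with Alb and Afp among them, on none. Of 6 adipocyte markers 1 lay above it on every array (Lpl) and 3 on none (Adipoq, Lep and Cidec). Nfic itself ranged from 10.19 to 10.77 on the wild-type arrays and from 9.89 to 10.72 on the knock-out arrays, and its difference in untreated cells was -0.10 ± 0.16 (SE), with a limma adjusted p of 1.00. The deleted part of Nfic is not named in the labels and probe positions were not used, so this probe set checks nothing and genotypes are given as labelled. In deviations from the group means, the wild-type 10 h arrays of embryos 2 and 3 did not move with the untreated arrays of the same number (r of -0.06 and -0.20 over genes, against 0.28 to 0.49 for the other 4 embryos). In such bulk samples fewer cells of a type and less RNA per cell cannot be told apart.

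The regions around the starts of Ppp1r3c and Ppp1r3d are shown because these were the members with the largest fall and the largest rise at 1 h. Both are RefSeq sequences of GRCm38.p6, each running 5′ to 3′ from 250 bases before the gene start to 50 after it, at chr19:36736555-36736854 and chr2:178414414-178414713, both on the minus strand. Capitals mark the E-box CACGTG, a site bound by helix-loop-helix factors.
Ppp1r3c: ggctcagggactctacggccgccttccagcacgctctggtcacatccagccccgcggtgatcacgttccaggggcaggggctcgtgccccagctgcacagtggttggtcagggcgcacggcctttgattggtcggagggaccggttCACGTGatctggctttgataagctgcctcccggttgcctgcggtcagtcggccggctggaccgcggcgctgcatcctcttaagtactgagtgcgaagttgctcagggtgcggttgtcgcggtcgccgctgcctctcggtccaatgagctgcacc
Ppp1r3d: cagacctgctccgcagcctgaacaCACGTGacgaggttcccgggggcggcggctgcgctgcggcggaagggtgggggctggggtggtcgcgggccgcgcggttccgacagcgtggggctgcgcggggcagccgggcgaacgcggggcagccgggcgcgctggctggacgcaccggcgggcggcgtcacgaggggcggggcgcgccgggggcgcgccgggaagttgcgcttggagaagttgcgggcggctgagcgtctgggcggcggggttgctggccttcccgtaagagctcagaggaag
The E-box began at position -104 from the start of Ppp1r3c and at position -226 from that of Ppp1r3d. Of 32851 promoters of this length 7.15% hold it on either strand, and of 9 promoters of 8 members (Ugp2 has 2) it was in these 2. The SMAD box CAGAC was found in 49.6% of all promoters and in 4 of the member promoters, those of Ppp1r3d, Pygb and Ugp2, but not in that of Ppp1r3c. The cAMP response element TGACGTCA, in 1.79% of all promoters, and the TGF-β inhibitory element, in 1%, were in none of the member promoters. All motifs were searched on both strands, and a match is a description of the letters only.

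On its brightest probe set Ppp1r3c was lower after 1 h and lower still after 10 h of TGF-β1 in both genotypes. In wild-type cells the brightest probe set, 1433691_at, read 6.88, 6.94 and 7.09 untreated, 5.55, 4.8 and 5.30 at 1 h, and 4.28, 4.38 and 4.71 at 10 h for embryos 1, 2 and 3. In knock-out cells it read 8.17, 7.65 and 7.75 untreated, 6.95, 6.16 and 6.37 at 1 h, and 4.06, 4.26 and 3.92 at 10 h. Within each genotype the 3 conditions do not overlap, and the level went down at each step in all embryos. Of all genes tested, 15.5% had 1 h values and 44.3% had 10 h values that did not overlap the untreated ones in wild-type cells, and 8.42% and 45.1% in knock-out cells. The order of the group means was knock-out untreated (7.86), wild-type untreated (6.97), knock-out 1 h (6.50), wild-type 1 h (5.22), wild-type 10 h (4.46) and knock-out 10 h (4.08). Of neighbours in that order, wild-type untreated and knock-out 1 h shared part of their range, and the other neighbours did not.

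**Figure D1:**
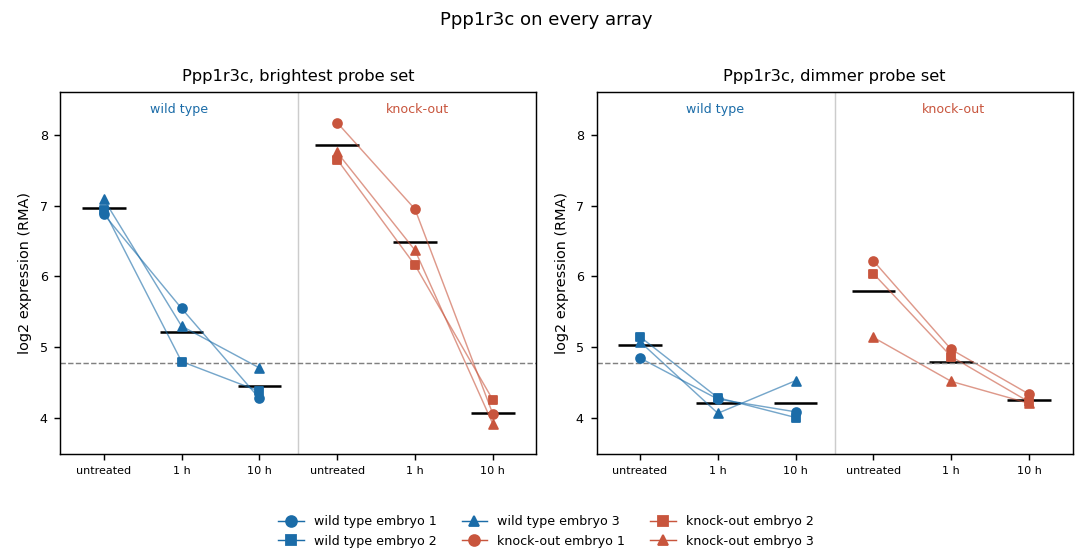
Ppp1r3c on each of the 18 arrays, as log2 expression (vertical axis) by genotype and condition (horizontal axis), for its brightest and its dimmer probe set. Points are arrays, thin lines join the arrays of an embryo, thick bars are group means and the dashed line is the mean of the array medians; on the brightest probe set the group mean goes from 6.97 to 4.46 in wild-type and from 7.86 to 4.08 in knock-out cells.

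At 1 h the difference from untreated was -1.75 ± 0.21 in wild-type cells, a level 3.37-fold lower, and -1.36 ± 0.21 in knock-out cells, 2.57-fold lower (log2 difference ± SE from limma, n = 3 embryos a group). These values chose the gene. By size alone Ccl3, a chemokine gene, had lower estimates at 1 h, at -2.03 ± 1.38 and -1.46 ± 1.38, and its untreated wild-type values of 7.84, 6.92 and 5.85 spread over a wide range. The next estimates by size after Ppp1r3c were those of Zfp40 in wild-type cells at -1.11 ± 0.24 and of Nfkbiz in knock-out cells at -1.29 ± 0.58.

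At 10 h Ppp1r3c fell by 2.51 ± 0.21 in wild-type cells, a level 5.69-fold lower than untreated, with a limma adjusted p of 4.3e-07. In knock-out cells it fell by 3.78 ± 0.21, with a limma adjusted p of 6.2e-09. These comparisons use the same untreated arrays as the 1 h values that chose the gene, so they are not independent of that choice. The probe set stood at array percentiles of 70.6 to 82.4 in untreated cells and of 32.1 to 49.3 at 10 h, under the 40th percentile of the filter on 2 of the 3 knock-out arrays. In the dim part of an array background makes up more of the signal, and the deposited values carry no detection call, so no fold is given for the knock-out. The wild-type 10 h values lay under the array median too, at percentiles of 41.4 to 49.3, so the wild-type fold is limited in the same way.

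Some markers of other cell types differed between the conditions as well. The summed linear level of the 6 adipocyte markers, divided by 1000, was 0.398 to 1.49 on the 6 untreated arrays, 0.423 to 1.30 at 1 h and 0.121 to 0.206 at 10 h. That of the 10 muscle markers was 0.522 to 0.844 untreated, 0.482 to 0.820 at 1 h and 1.51 to 2.33 at 10 h. Lpl went from 8.16 to 10.41 untreated to 5.33 to 6.84 at 10 h, and Acta1, an actin of muscle, from 8.29 to 9.28 to 10.32 to 11.03, while Ckm stayed at 4.86 to 5.23 throughout. The sum of the 9 liver markers was 0.225 to 0.256 untreated and 0.242 to 0.287 at 10 h. That of the 10 fibroblast markers was 79.7 to 84.9 untreated and 78.2 to 86.4 at 10 h. Their mean log2 level was 11.51 to 12.04 untreated and 11.23 to 11.54 at 10 h. For both the adipocyte and the muscle sum the 10 h arrays do not overlap the others. Lpl makes up most of the adipocyte sum on the untreated arrays, and Acta1 most of the muscle sum at 10 h. Pparg went from 4.99 to 5.84 untreated to 4.49 to 4.86 at 10 h, while Fabp4 overlapped (5.32 to 6.17 and 4.29 to 5.73). The part of other cell types in these levels and in the 10 h results was not tested.

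The dimmer probe set of Ppp1r3c, 1425631_at, was also lower at 1 h and at 10 h than untreated in both genotypes. In wild-type cells it read 4.85, 5.15 and 5.08 untreated, 4.27, 4.29 and 4.07 at 1 h, and 4.09, 4.01 and 4.53 at 10 h, so that the values of 1 h and 10 h overlapped. The wild-type mean was 4.21 at both times, with no further fall after 1 h. These treated wild-type values stood at array percentiles of 34 to 46.3, in the dim part of the array. In knock-out cells this probe set read 6.22, 6.04 and 5.14 untreated, 4.97, 4.87 and 4.52 at 1 h, and 4.34, 4.23 and 4.21 at 10 h, with no overlap between the conditions. In a fit of all 24691 probe sets past the filter it fell at 10 h by 0.82 ± 0.22 in wild-type and by 1.54 ± 0.22 in knock-out cells (limma adjusted p of 0.0111 and 8.4e-05). With the mean of both probe sets as the level of the gene, the 10 h difference was -1.66 in wild-type and -2.66 in knock-out cells.

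Whether NFI-C bears on Ppp1r3c was read from knock-out against wild type at each condition. In untreated cells Ppp1r3c was 0.89 ± 0.21 higher in the knock-out, and the 3 knock-out values lie above the 3 wild-type values, as happens in either direction for 7.93% of all genes tested. At 1 h it was 1.28 ± 0.21 higher, again with no overlap, against 14.3% of genes. At 10 h it was 0.38 ± 0.21 lower with no overlap, against 7.6% of genes.

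None of these differences passed after adjustment over all genes. The limma adjusted p was 0.961 untreated, 0.120 at 1 h and 0.925 at 10 h, beside unadjusted p-values of 6.8e-04, 1.8e-05 and 0.0914. The untreated and 1 h comparisons use the arrays whose values chose Ppp1r3c, so they are not independent of that choice. The 10 h response was 1.27 ± 0.30 more negative in the knock-out (unadjusted p of 6.3e-04, limma adjusted p of 0.999). That comparison uses the same untreated arrays and has the same limit. Both genotypes ended in the dim part of the array at 10 h, and the part of this in the difference was not tested. The 1 h responses, which chose the gene, differed by 0.39 ± 0.30, given with no test. The dimmer probe set differed by 0.77 untreated, 0.58 at 1 h and 0.05 at 10 h, knock-out minus wild type. No gene of the 13679 passed in any of the 4 comparisons tested (0%), and at an unadjusted p under 0.05 there were 460 genes untreated, 846 at 1 h, 721 at 10 h and 305 for the difference in 10 h response. A p that misses the threshold does not show that the genotypes have the same level.

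Of the other 7 tested members none reached an unadjusted p under 0.05 in any of these 4 comparisons. The largest difference in size between genotypes among them was 0.12 untreated, 0.23 at 1 h and 0.19 at 10 h. Ppp1r3c was the member at an unadjusted p under 0.05 in untreated cells, at 1 h and in the difference of the 10 h responses. All of these use arrays whose values chose it.

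Ppp1r3d, which encodes another subunit that carries the phosphatase to glycogen, was higher at 1 h and lower at 10 h. In wild-type cells it read 6.19, 5.79 and 5.72 untreated, 6.76, 6.82 and 6.50 at 1 h, and 5.48, 5.37 and 5.14 at 10 h. In knock-out cells it read 5.75, 5.80 and 5.78 untreated, 6.33, 6.64 and 6.41 at 1 h, and 5.08, 5.11 and 5.35 at 10 h. The conditions do not overlap in either genotype, and each of the 6 embryos was higher at 1 h and lower at 10 h than untreated. The 1 h difference was 0.79 ± 0.13 in wild-type and 0.68 ± 0.13 in knock-out cells, opposite in sign to that of Ppp1r3c. At 10 h Ppp1r3d fell by 0.57 ± 0.13 in wild-type and by 0.60 ± 0.13 in knock-out cells (limma adjusted p of 0.00385 and 0.00267).

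Ppp1r3b, the subunit best known from liver, showed no such steps. Its 18 values ran from 5.75 to 6.47 and all conditions overlapped. At 10 h it differed from untreated by -0.05 ± 0.16 in wild-type and by -0.17 ± 0.16 in knock-out cells (limma adjusted p of 0.835 and 0.440), with 95% intervals from -0.38 to 0.28 and from -0.50 to 0.16.

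Gys1, the glycogen synthase gene of muscle and most other tissues, rose at 10 h. In wild-type cells it read 8.10, 8.24 and 8.12 untreated, 7.87, 7.89 and 7.92 at 1 h, and 8.59, 9.0 and 8.80 at 10 h. In knock-out cells it read 8.02, 8.04 and 8.29 untreated, 8.08, 8.14 and 8.0 at 1 h, and 8.65, 8.73 and 8.59 at 10 h. The 10 h arrays lie above all others in both genotypes. The rise at 10 h was 0.64 ± 0.10 in wild-type cells, or 1.56-fold, and 0.54 ± 0.10 in knock-out cells, or 1.45-fold (limma adjusted p of 1.8e-04 and 6.9e-04).

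At 1 h Gys1 differed from untreated by -0.26 ± 0.10 in wild-type cells, with no overlap, and by -0.04 ± 0.10 in knock-out cells, with overlap. Its second probe set, 1450196_s_at, carries the suffix that Affymetrix gives to probes shared by several transcripts. That probe set was 0.93 ± 0.27 higher at 10 h in wild-type and 0.70 ± 0.27 higher in knock-out cells (limma adjusted p of 0.0180 and 0.0673).

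**Figure D2:**
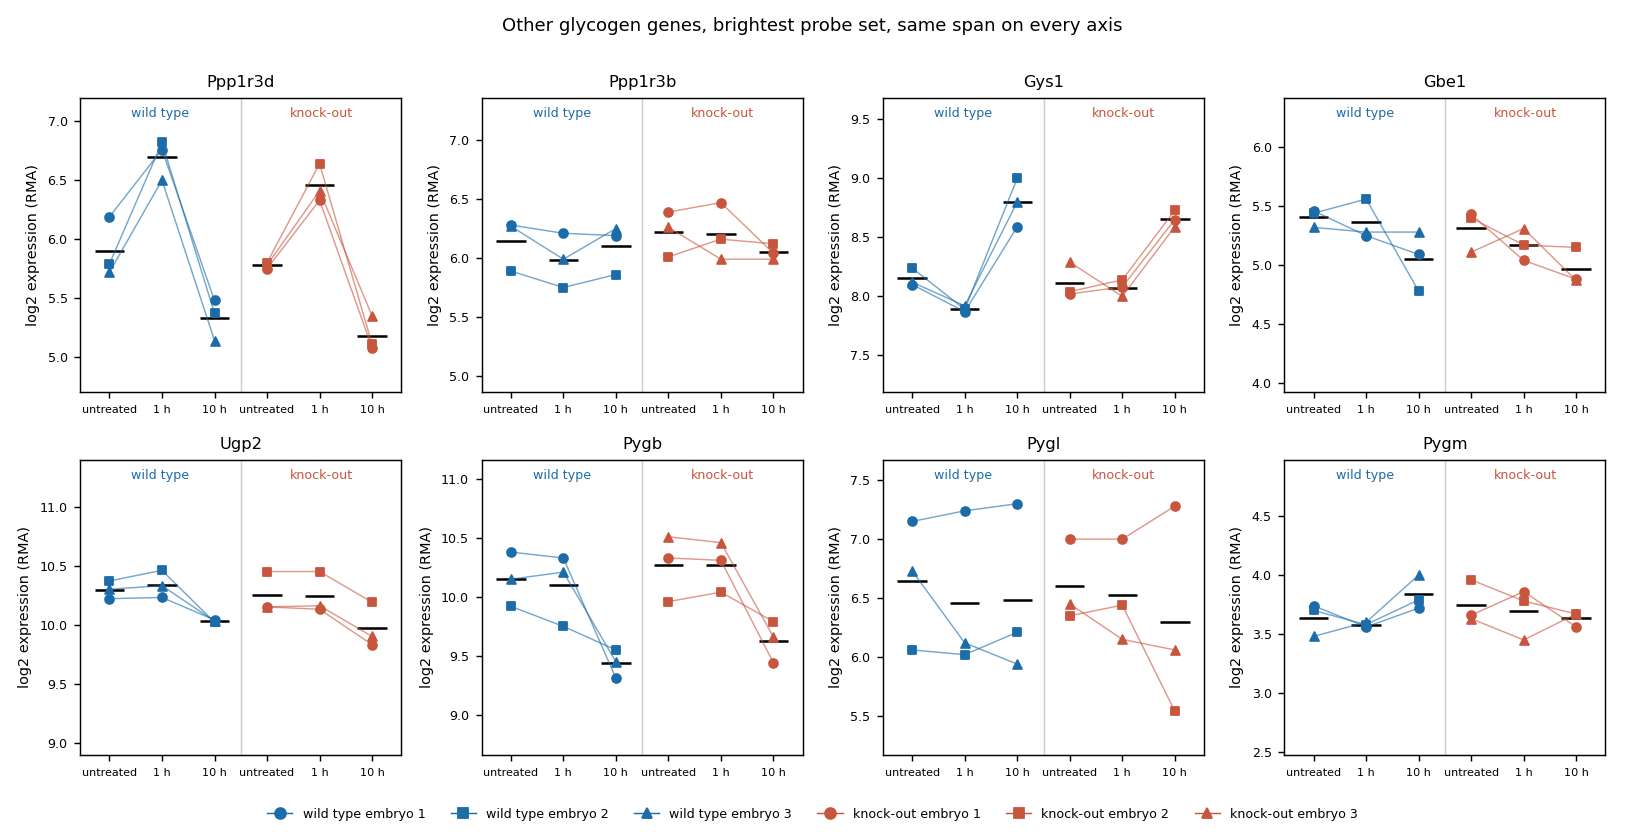
Log2 expression (vertical axis) of the other 8 members on the 18 arrays by genotype and condition (horizontal axis), brightest probe set of each. Points are arrays joined by embryo and thick bars are group means; axes cover the same span from different starts, and levels are not comparable between panels. Gys1 is highest at 10 h, Ppp1r3d is highest at 1 h, and Pygl is high in embryo 1 of both genotypes.

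Gbe1, the branching enzyme gene, and Ugp2, which encodes the enzyme that makes UDP-glucose, were near the threshold at 10 h. Gbe1 read 5.46, 5.44 and 5.32 untreated and 5.09, 4.78 and 5.28 at 10 h in wild-type cells, and 5.43, 5.4 and 5.11 untreated and 4.88, 5.15 and 4.87 at 10 h in knock-out cells. Its 10 h difference was -0.35 ± 0.13 in both genotypes (limma adjusted p of 0.0539 in wild-type and 0.0582 in knock-out cells), and it was lower than untreated in each of the 6 embryos. The values overlapped in the knock-out and did not in the wild type. Gbe1 passed in both genotypes with the embryo as a random block (0.0401 and 0.0444), in wild-type cells without wild-type embryo 3 (-0.51, 0.0355) and in knock-out cells without wild-type embryo 2 (0.0319). Its wild-type difference was -0.20 (0.328) without wild-type embryo 2.

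Ugp2 had 5 probe sets, all lower on average at 10 h in both genotypes. On the brightest, 1434485_a_at, wild-type cells read 10.22, 10.37 and 10.30 untreated and 10.04, 10.02 and 10.03 at 10 h. Knock-out cells read 10.15, 10.45 and 10.15 untreated and 9.83, 10.19 and 9.90 at 10 h, which overlap as groups while each embryo was lower. The difference was -0.26 ± 0.12 in wild-type and -0.27 ± 0.12 in knock-out cells (limma adjusted p of 0.0882 and 0.0785).

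With the embryo as a fixed block, which compares each culture with its own untreated one, the same differences of Ugp2 passed, with adjusted p of 0.0112 and 0.00888, and also with the embryo as a random block (0.0371 and 0.0309) and without knock-out embryo 2 (0.0208 and 0.0450). With the mean of its probe sets Ugp2 passed as well, at -0.42 and -0.46 (0.0225 and 0.0139). Of the other 4 probe sets, 1426461_at passed in both genotypes without the block, at -0.59 ± 0.14 and -0.65 ± 0.14 (limma adjusted p of 0.00482 and 0.00207). Another, 1434486_x_at, passed in knock-out cells at -0.35 ± 0.10 (adjusted p of 0.0181) and not in wild-type cells at -0.17 ± 0.10 (0.245), and its suffix marks probes that can bind other sequences. The remaining pair of probe sets had differences from -0.67 to -0.42 and passed in neither genotype (adjusted p of 0.0513 to 0.101). At 1 h Gbe1 and the brightest probe set of Ugp2 differed from untreated by -0.14 to 0.04.

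Pygb, the brain form of glycogen phosphorylase, fell at 10 h. In wild-type cells it read 10.38, 9.92 and 10.15 untreated, 10.33, 9.75 and 10.21 at 1 h, and 9.31, 9.55 and 9.45 at 10 h. In knock-out cells it read 10.33, 9.96 and 10.51 untreated, 10.31, 10.04 and 10.46 at 1 h, and 9.44, 9.79 and 9.66 at 10 h. The 10 h arrays lie below the untreated arrays in both genotypes, and the untreated and 1 h arrays overlap. The 10 h difference was -0.71 ± 0.17 in wild-type cells, 1.64-fold lower, and -0.64 ± 0.17 in knock-out cells, 1.56-fold lower (limma adjusted p of 0.00478 and 0.00907). The call was lost in wild-type cells without wild-type embryo 1 (adjusted p of 0.0709), and in knock-out cells without knock-out embryo 1 (0.124) or 3 (0.0881).

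Pygl, the liver form, differed between cultures more than between conditions. It read 7.15 untreated, 7.24 at 1 h and 7.30 at 10 h in wild-type embryo 1, and 7.0, 7.0 and 7.28 in knock-out embryo 1. In the other 4 embryos its 12 values ran from 5.54 to 6.73 with a median of 6.14, all below those of both embryos 1. Its 10 h difference was -0.17 ± 0.46 in wild-type and -0.31 ± 0.46 in knock-out cells (limma adjusted p of 0.804 and 0.652), with 95% intervals from -1.13 to 0.80 and from -1.28 to 0.66.

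The macrophage markers split the cultures the same way. The mean log2 level of the 10 markers was 9.45 to 10.36 on the 6 arrays of both embryos 1 and 7.73 to 8.82 on the other 12. Their summed level on the linear scale, divided by 1000, was 17.1 to 27.2 on those 6 arrays and 6.06 to 11.5 on the other 12. By group it ran from 9.56 to 27.2 in untreated, 9.11 to 25.4 in 1 h and 6.06 to 24.1 in 10 h wild-type cells, and from 6.52 to 19.6, 6.37 to 17.1 and 6.09 to 17.2 in the knock-out cells. The part of these cells in the level of Pygl was not tested. Without embryo 1 of both genotypes, a choice made after the data were seen, the 10 h difference of Pygl was -0.32 in wild-type and -0.60 in knock-out cells (limma adjusted p of 0.338 and 0.0916), and that of Pygb was -0.54 and -0.51 (0.0994 and 0.123).

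**Figure D3:**
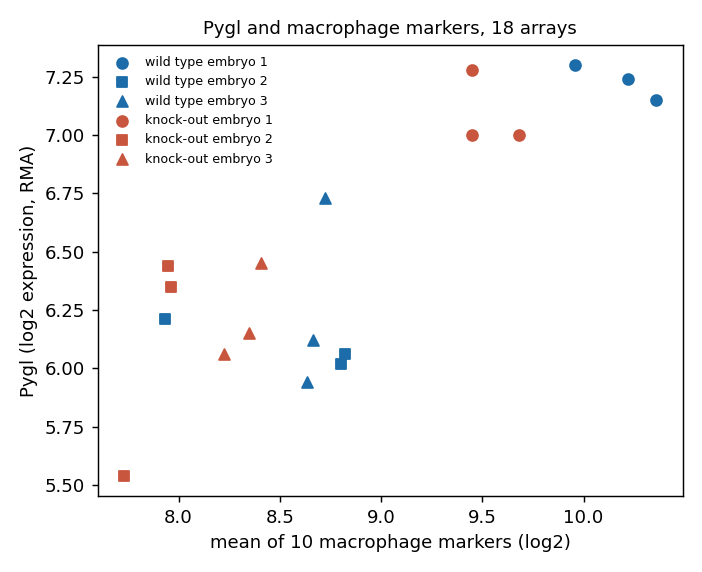
Pygl (vertical axis, log2 expression) against the mean of 10 macrophage markers (horizontal axis, log2 expression) on each of the 18 arrays, marked by genotype and embryo. The 6 arrays of embryo 1 of both genotypes lie at marker means of 9.45 or more and Pygl levels of 7.0 or more, and the other 12 at 8.82 or less and 6.73 or less.

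Pygm, the muscle form, stayed dim. Its 18 values ran from 3.45 to 4.00, above the 40th percentile on 0 arrays, and it entered no test.

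By count at 10 h, 1 of the 8 members that passed the filter was higher (Gys1), 3 were lower (Ppp1r3c, Ppp1r3d and Pygb) and 4 did not pass, with the same genes in each class in wild-type and knock-out cells. Of all 13679 genes 33.7% passed in wild-type cells, 14.9% higher and 18.8% lower, and 34.7% passed in knock-out cells, 13.9% higher and 20.7% lower. With 8 genes, these counts are not read as particular to glycogen metabolism. The median difference of the 8 members was -0.31 in wild-type and -0.33 in knock-out cells, beside 0.01 and -0.03 over all genes tested. Ppp1r3c, which was chosen by values that use the same untreated arrays, is among these 8. Without it 1 of 7 members was higher and 2 were lower in each genotype, with median differences of -0.26 in wild-type and -0.31 in knock-out cells.

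**Figure D4:**
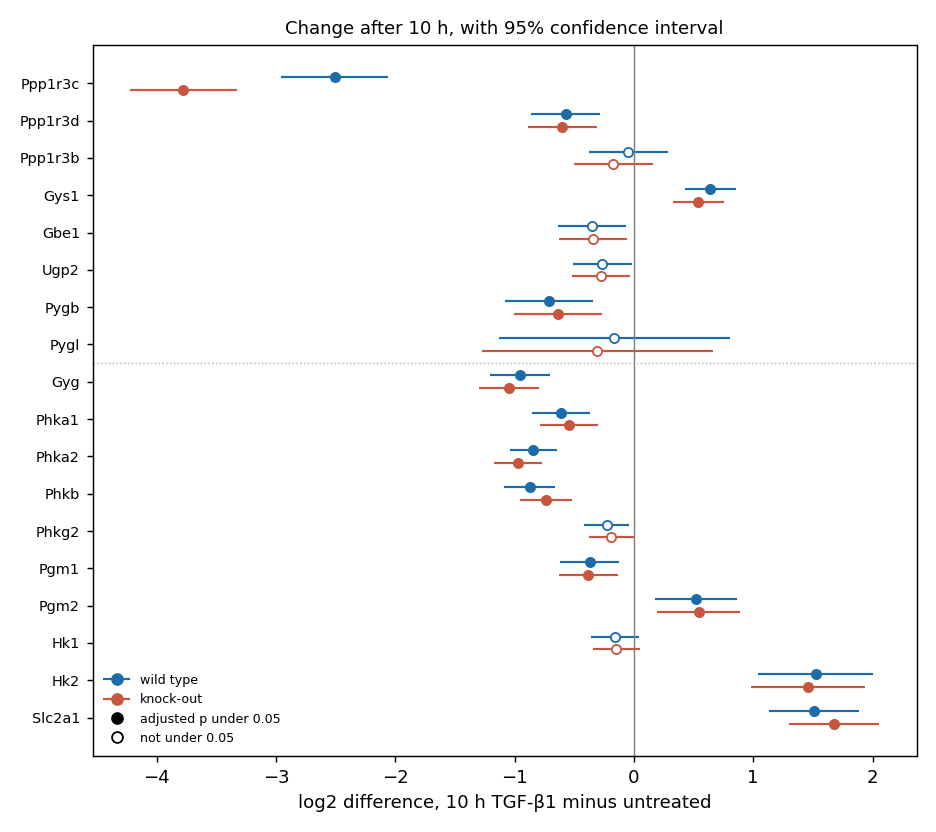
Log2 difference of 10 h TGF-β1 from untreated (horizontal axis) in wild-type (blue) and knock-out (red) cells. Above the dotted line are the 8 members past the filter. Below it are 10 of the 34 tested genes of the wider list, for glycogenin, phosphorylase kinase, phosphoglucomutase, hexokinase and glucose transport. Pgm3, Pgm5 and other listed genes are not drawn, so the 10 do not stand for the list. Of the 34, 13 passed in wild-type and 12 in knock-out cells. Points are estimates from 3 embryos a group, filled where the adjusted p was under 0.05, and bars are 95% intervals not adjusted for the number of genes; Ppp1r3c lies farthest below 0, and Slc2a1 and Hk2 farthest above.

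A wider list of 40 genes of glycogen and glucose handling gave 38 on the array and 34 past the filter. At 10 h 5 of the 34 were higher, 8 lower and 21 did not pass in wild-type cells, and 4 were higher, 8 lower and 22 did not pass in knock-out cells. Of all 13679 genes 33.7% passed in wild-type cells, 14.9% higher and 18.8% lower. In knock-out cells 34.7% passed, 13.9% higher and 20.7% lower. The counts of the list are not read as particular to glycogen or glucose handling. The median difference was -0.15 in wild-type and -0.14 in knock-out cells, beside 0.01 and -0.03 over all genes tested. At 1 h, with no test, the differences ran from -0.40 (Phkg2) to 0.45 (Hk2) in wild-type and from -0.25 (Nhlrc1) to 0.35 (Hk2) in knock-out cells.

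Genes of glucose entry gave the largest rises of the list at 10 h in both genotypes. Slc2a1, the glucose transporter of most cells, read 9.32, 9.75 and 9.48 untreated and 10.83, 11.19 and 11.06 at 10 h in wild-type cells, and it rose by 1.51 ± 0.18 there and by 1.68 ± 0.18 in the knock-out (limma adjusted p of 1.1e-05 and 3.6e-06). Hk2, a hexokinase that traps glucose as glucose 6-phosphate, read 8.01, 8.67 and 7.82 untreated and 9.60, 9.49 and 9.97 at 10 h in wild-type cells, and it rose by 1.52 ± 0.23 there and by 1.46 ± 0.23 in the knock-out (adjusted p of 9.7e-05 and 1.3e-04). For both genes the 10 h values lie above the untreated values in each genotype. Hk1, the other hexokinase of the list, did not pass in either genotype.

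The gene of the primer protein and 3 of the phosphorylase kinase subunit genes fell at 10 h. Gyg, the glycogenin gene, read 10.99, 10.62 and 10.79 untreated and 10.04, 9.79 and 9.70 at 10 h in wild-type cells, and it fell by 0.96 ± 0.12 there and by 1.04 ± 0.12 in the knock-out (limma adjusted p of 1.8e-05 and 7.3e-06). Phka2, a regulatory alpha subunit of the kinase that activates phosphorylase, fell by 0.84 ± 0.09 in wild-type and by 0.97 ± 0.09 in knock-out cells (5.8e-06 and 1.4e-06), and with the mean of its probe sets by 0.29 and by 0.44 (0.0262 and 0.00205). Phkb, the beta subunit gene, fell by 0.87 ± 0.10 and by 0.74 ± 0.10 (1.0e-05 and 4.3e-05). Phka1, the other alpha subunit gene, fell by 0.61 ± 0.12 and by 0.54 ± 0.12 (7.7e-04 and 0.00176). Phkg2, a catalytic subunit gene, differed by -0.23 and by -0.19 (0.0541 and 0.109), and Phkg1, the other one, was too dim to test.

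Of the phosphoglucomutase genes, Pgm1 fell by 0.37 ± 0.12 in wild-type and by 0.38 ± 0.12 in knock-out cells (limma adjusted p of 0.0217 and 0.0176). Pgm2 rose by 0.52 ± 0.16 and by 0.54 ± 0.16 (0.0216 and 0.0163). Both symbols are those of the array annotation, and which of these enzymes serves glycogen was not assigned here. Pgm3, whose enzyme works on N-acetylglucosamine phosphate and not in glycogen synthesis, rose by 0.37 ± 0.12 and by 0.46 ± 0.12 (0.0265 and 0.00729). Pgm5, whose product lacks mutase activity and sits at cell adhesions, fell by 1.04 ± 0.30 in wild-type cells (0.0136), and differed by -0.65 ± 0.30 in the knock-out (0.106, and 0.00907 with the embryo as a fixed block). The wild-type call of Pgm5 was lost without wild-type embryo 2, at -0.68 (0.156), and with only the groups compared (0.0553).

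The calls of Pgm1, Pgm2 and Pgm3 did not hold in every setting. Pgm1 was at -0.13 and -0.20 with the mean of its probe sets (0.230 and 0.0720), and it also missed the threshold in wild-type cells without wild-type embryo 1 (0.0667) or 2 (-0.26, 0.193), in knock-out cells without knock-out embryo 1 (0.138) or 3 (0.0555), and with only the groups compared (0.0691 and 0.0710). Pgm2 was lost without wild-type embryo 1 (0.207) or 3 (0.0821), and in knock-out cells without knock-out embryo 1 (0.0597) or 3 (0.36, 0.130). Pgm3 was lost in wild-type cells without wild-type embryo 1 (0.155) or 3 (0.0794) and with only the groups compared (0.0714), and in knock-out cells without knock-out embryo 3 (0.0838).

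Of the genes for kinases that act on glycogen synthase, 3 passed in wild-type cells, and none of these calls held in every setting. Gsk3a, Prkaca, Prkacb, Prkaa1, Prkab1, Prkab2 and Prkag1 did not pass in either genotype. In wild-type cells 33.7% of all 13679 genes passed, and the count is not read as particular to these kinases. Gsk3b, which phosphorylates and so inhibits the synthase, fell by 0.56 ± 0.18 in wild-type cells (limma adjusted p of 0.0212) and differed by -0.41 ± 0.18 in the knock-out (0.0882). Prkaa2, a catalytic subunit gene of the AMP-activated kinase, fell by 0.36 ± 0.13 and by 0.44 ± 0.13 (0.0444 and 0.0156), with values of 4.02 to 4.97 near or under the array median. Prkag2, a regulatory subunit gene of the same kinase, rose by 0.40 ± 0.14 in wild-type cells (0.0400) and differed by 0.34 ± 0.14 in the knock-out (0.0776, and 0.0205 with the embryo as a fixed block).

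The wild-type call of Gsk3b was lost with the mean of its probe sets (-0.28, adjusted p of 0.151), with only the groups compared (0.0602) and without wild-type embryo 1 (0.0807) or 2 (-0.37, 0.182), while Gsk3b passed in knock-out cells without knock-out embryo 2 (0.0363). That of Prkaa2 was lost in 9 of the 15 settings in which it was tested, with -0.20 (0.307) without wild-type embryo 1 and -0.28 (0.255) without wild-type embryo 3, and its knock-out call without knock-out embryo 1 (0.161) or 3 (0.100). That of Prkag2 was lost without any of the wild-type embryos (0.101 to 0.174), without knock-out embryo 1 (0.0506) and with the mean of its probe sets (0.21, 0.151).

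In the knock-out comparison Slc37a4, which carries glucose 6-phosphate into the endoplasmic reticulum, fell by 0.48 ± 0.09 (limma adjusted p of 7.0e-04), and it differed by -0.21 ± 0.09 in wild-type cells (0.0848). G6pc3, the glucose 6-phosphatase of most tissues, fell by 0.32 ± 0.11 in knock-out cells (0.0415, and 0.0509 with the embryo as a fixed block) and differed by -0.15 ± 0.11 in wild-type cells (0.334). The call of G6pc3 was also lost with every probe set tested (0.0532), without wild-type embryo 1 (0.0656) and without any of the knock-out embryos (0.0595 to 0.212). The responses of the listed genes were not shown to differ between genotypes, since none passed in the difference of the 10 h responses (0 of 34 also at an unadjusted p under 0.05).

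The catalytic subunits that Ppp1r3c would bind did not pass at 10 h. Ppp1ca differed by -0.01 ± 0.08 in wild-type and by 0.01 ± 0.08 in knock-out cells (limma adjusted p of 0.928 and 0.966). Ppp1cc differed by 0.02 ± 0.07 and by -0.04 ± 0.07 (0.840 and 0.691), and Ppp1cb by -0.17 ± 0.12 and by -0.24 ± 0.12 (0.306 and 0.136). Epm2a and Nhlrc1, which encode laforin and malin, partners in the control of glycogen quality and of Ppp1r3c turnover, did not pass either. Their values of 3.94 to 4.45 and of 4.05 to 4.82 lay near or under the array median, which limits what a missed threshold shows.

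The 5 genes whose levels were most like those of Ppp1r3c over the 18 arrays, by Pearson correlation among 13678 genes, were Amer1 (0.936), Map3k12 (0.934), Mepce (0.934), Ehmt2 (0.931) and Tcta (0.928). The 5 most opposite were Snord89 (-0.941), Ptgs2 (-0.936), Gfpt2 (-0.934), Kbtbd2 (-0.933) and Zfp568 (-0.931). The points share 6 embryos and 6 groups, and these values are a description with no p. Group means of Amer1 went from 6.58 untreated to 6.32 at 1 h and 6.05 at 10 h in wild-type cells, a smaller span than that of Ppp1r3c. Those of Ptgs2, a prostaglandin synthase gene, went from 9.50 to 10.81 and 12.05. Among the members the correlation with Ppp1r3c was 0.771 for Pygb, 0.528 for Gbe1, 0.481 for Ugp2, 0.451 for Ppp1r3b, 0.335 for Ppp1r3d, 0.222 for Pygl and -0.613 for Gys1.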

How the data were processed

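Biotin-labelled cRNA from 18 cultures was hybridised to Affymetrix arrays. The deposited values are log2 levels per probe set. RMA, named in the submitters' processing notes with no version, produced them, and no further normalization was applied. Genes were named from the array annotation: 34958 probe sets had a single symbol, 932 had several and 9211 were not named. Each gene was read from its brightest probe set, and a gene was kept if it exceeded the 40th percentile of all probe sets on 3 or more arrays. Limma 3.58.1 in R 4.3.3 fitted the 6 group means (12 residual degrees of freedom), with Benjamini-Hochberg adjustment over the 13679 genes and a threshold of 0.05. The 95% interval of a difference reached 0.27 to either side for the median gene, and with 3 arrays a group their number limits the precision. The planned test of the difference between the 1 h responses is not reported, because those values chose the gene. The test was tried on simulated data. The members and lists were chosen with earlier results of these data known. All members are named, with genes of the wider list that passed at 10 h, the next 1 h falls and the 5 most and least like Ppp1r3c.

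Same-numbered arrays within a genotype come from the same embryo, per the labels. Their deviations correlated at 0.59 to 0.76 between untreated and 1 h, and at -0.20 to 0.49 between untreated and 10 h. Same-numbered arrays of the 2 genotypes are different embryos, with correlations of 0.07 to 0.54 untreated, 0.10 to 0.49 at 1 h and -0.20 to 0.13 at 10 h.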

Additional observations from a re-analysis of the deposited data

How the results depend on the processing

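The results were recomputed under 15 planned settings, of which 6 leave out an embryo, and 1 setting chosen after seeing the data (without embryo 1 of both genotypes). At 10 h between 3 and 6 members passed in each genotype, and between genotypes none passed in any setting. With the replicate block, which is the embryo as a fixed block for 10 h against untreated and the shared number between genotypes, 5 members passed in each genotype, with Ugp2 added, and with the embryo as a random block 6, with Gbe1 and Ugp2 added. The replicate block changed the call of no other member. Ppp1r3c, Ppp1r3d and Gys1 passed at 10 h in both genotypes in every setting. The 1 h difference of Ppp1r3c in wild-type cells was -1.29 with the mean of its probe sets.

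Leaving out an embryo moved the 10 h difference of Pygl in wild-type cells between -0.32 and 0.15, turning its sign without wild-type embryo 3, and that of G6pc3 between -0.28 and 0.036, likewise. The cause was not tested. Of the wider list 6 of 13 calls in wild-type and 7 of 12 in knock-out cells held in every setting. In wild-type cells 4 listed genes were lower when only the groups compared were fitted, 5 were lower and 2 higher without wild-type embryo 1 or without both embryos 1, and 2 were higher without wild-type embryo 3. In knock-out cells 5 were lower and 2 higher without knock-out embryo 3, and 5 were lower without both embryos 1. With every probe set tested in place of 1 a gene, 6932 of 24691 probe sets (28.1%) passed at 10 h in wild-type cells, against 4614 of 13679 genes (33.7%). Of the genes, 3031 against 4745 passed at 10 h in knock-out cells without both embryos 1, and between genotypes 1 at 1 h and 6 at 10 h with the replicate block, against 0.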
